A study of Danio rerio with 6 samples.

Results

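Genes of the circadian clock were followed in the livers of adult male zebrafish (Danio rerio) that had been kept for 3 weeks with 17β-estradiol or nonylphenol. The members are all rows of the authors' 2 deposited tables that carry 1 of 10 gene symbols: the activators arntl1a and clocka, the periods per1a, per1b, per2 and per3, the nuclear receptors nr1d1 and nr1d2a, and the leucine zipper factors nfil3-5 and tefa. They were chosen by symbol, with earlier results of these data known. They take up 11 of 31953 gene IDs, since clocka has 2, and 10 of the 11 had reads in at least 1 table.

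In the control group male fish received the vehicle ethanol, in the E2 group 1000 nM 17β-estradiol (the main natural estrogen), and in the NP group 100 nM nonylphenol (an alkylphenol formed when surfactants break down, which can bind estrogen receptors). No strain or genotype is given in the labels. Each group was 1 tank of 80 L with 40 fish, fed 2 times a day under 14 h of light and 10 h of dark, and is represented by 2 RNA sequencing libraries of liver. Tank and treatment cannot be told apart, the hour at which livers were taken is not given in the sources used here, and nothing states if 1 fish or a pool went into a library. Any p-value here rests on how far libraries of a group lie apart, and that distance may be technical. The concentrations of the 2 agents differ, so their values stand side by side and were not compared.

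The vertebrate clock is a feedback loop of transcription. Bmal proteins (arntl genes) pair with Clock proteins and switch on the period and cryptochrome genes, whose products then block the pair. The Rev-erb receptors (nr1d genes) repress arntl genes, and nfil3 and tef proteins compete for shared D-box sites, where nfil3 family proteins repress and tef activates. In zebrafish the clocks of most tissues, liver included, can be set directly by light, and per2 is 1 of the genes that light induces. Because transcripts of this loop rise and fall over the day, their level at a single sampling depends on the hour, and no hour can be compared here.

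The files give each comparison's mean normalised read count, log2 fold change, standard error (SE) and p-values. Whole reads per library were worked out from these means, and the 2 libraries of a group are called deeper and shallower, because they cannot be tied to a sample name. Recovered reads were few and unequal. Over the 18348 solved genes the controls held 498974 and 306387 reads, the E2 libraries 241591 and 19186, and the NP libraries 314962 and 312506. These genes hold 40.2% and 32.8% of the summed means in the authors' E2 and NP tables, so the totals are not the full depth of a library. In the shallower E2 library 3284 genes had a read, against 11404 to 14112 in the other 5. All 14 hepatocyte markers looked up had an adjusted p in both of the authors' deposited tables, and in E2 3 of them fell. Markers of other tissues differed between libraries: summed normalised reads of 11 exocrine pancreas markers reached 12.8 and 168 in control, 125 and 1162 in E2, and 4935 and 14306 in NP, deeper library first. In these bulk libraries fewer cells of a type and less RNA per cell cannot be told apart.

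No member passed an adjusted p of 0.05 in either comparison. In the authors' deposited table for E2, 0 of the 11 members had an adjusted p at all, since each had a mean below 12.6, the lowest at which one is given, and 187 of 3241 genes with an adjusted p were called (5.77%). In the authors' deposited table for NP, 6 members had an adjusted p and 0 were called, against 200 of 6799 genes (2.94%). At an unadjusted p under 0.05, 1 of 9 members with reads stood out in the authors' E2 table (nfil3-5), against 970 of 17208 genes (5.64%), and 0 of 10 in the authors' NP table, against 726 of 18067 (4.02%). With the authors' p-values adjusted over every gene that has one, 0 of 9 members passed in E2, against 72 of 17208 genes (0.418%), and 0 of 10 in NP, against 152 of 18067 (0.841%). With the recovered reads, limma-voom made no call among 10684 genes in E2 (0.0%) or in NP (0.0%). By limma-voom at an unadjusted p under 0.05 there were 3 of 8 members in E2 (nfil3-5, per2 and per1a) against 13.5% of genes, and 0 of 8 in NP against 6.43%.

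Of all members together, 73 reads were found in the deeper E2 library and 0 in the shallower. The ratio of the 2 size factors is 5.92, at which 73 reads would correspond to 12.3, and the ratio of the recovered reads is 12.6, at which they would correspond to 5.80. All E2 reads of the members thus come from 1 library. Zero was common there: of 3859 genes with at least 10 reads in the deeper E2 library 49.3% had 0 in the shallower, and of 2464 genes with 10 to 35 reads 60.1% did, as did all 3 members in that range (per1a, per1b and tefa). A count of 0 in the shallower E2 library allows up to 3 reads, which at its depth is 34.2 normalised reads (counting error only). A 0 in that library is therefore compatible with the control level of most members, and the position of an E2 group is described by its deeper library. Of the other clock genes looked up, 8 of 54 had a read in that library, 34 reads in all.

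Normalised reads below are reads divided by the size factor of the library, set so that the geometric mean of the 2 controls is 1. They compare libraries for 1 gene and not genes with each other, since no transcript lengths were used. The 2 treated groups share the same controls.

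Of the activators, arntl1a (ENSDARG00000006791), which encodes a Bmal1 protein, had 14 and 10 reads in control, 2 and 0 in E2, and 13 and 10 in NP. These were 11.2 and 12.5 normalised reads in control, 3.85 and 0 in E2, and 18.4 and 14.6 in NP. The deeper E2 library lay below both controls and both NP libraries above, and the 2 controls were close to each other. The log2 fold change in the authors' deposited tables was -1.64 ± 1.66 (SE) in E2, without an adjusted p, and 0.41 ± 1.01 in NP (adjusted p = 0.999). With 2 reads in E2, the pooled control level was 3.55 times the E2 level, with an exact 95% interval of 0.883 to 31.0 for counting error alone. clocka (ENSDARG00000011703), the partner of Bmal, had 0 and 2 reads in control, 3 and 0 in E2, and 3 and 2 in NP, too few to order the groups. The other clocka ID (ENSDARG00000097598) had 0 reads in every library.

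In the deeper E2 library the period gene per2 lay below both controls, and per1a and per1b lay above both. Differences between the period genes were not tested. per2 (ENSDARG00000034503), the light-induced repressor, had 50 and 26 reads in control, 3 and 0 in E2, and 23 and 35 in NP. On the normalised scale these were 40.1 and 32.4 in control, 5.78 and 0 in E2, and 32.5 and 50.9 in NP. The controls differed by 1.24-fold, the deeper E2 library lay below them, and NP overlapped them. The pooled E2 level was 7.504-fold lower than control (exact 95% interval 2.47 to 37.2, counting error alone). Its E2 change in the authors' deposited table was -2.65 ± 1.44 with an unadjusted p of 0.0649 and no adjusted p, and limma-voom gave -2.65 ± 0.81 with adjusted p = 0.273. For NP the authors' deposited table gave 0.18 ± 0.82 (adjusted p = 0.999), with a 95% interval from -1.42 to 1.78 on the log2 scale.

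per1a (ENSDARG00000056885), a repressor of the loop, was high in 1 library. Its reads numbered 5 and 1 in control, 13 and 0 in E2, and 1 and 0 in NP. The deeper E2 library, at 25.04 normalised reads, stood above the controls at 4.01 and 1.25, and the 0 of the shallower E2 library cannot be placed against them. The authors' deposited table gave 1.95 ± 1.64 in E2 and -0.86 ± 1.43 in NP, neither with an adjusted p, and limma-voom gave 2.39 ± 0.97 in E2 (adjusted p = 0.343). per1b (ENSDARG00000012499), its paralog, had 11 and 11 reads in control, 11 and 0 in E2, and 11 and 5 in NP. The NP libraries, at 15.5 and 7.28 normalised reads, lay on either side of the controls at 8.82 and 13.7. The changes of per1b in the authors' deposited tables were 0.16 ± 1.49 in E2 and 0.02 ± 1.08 in NP (adjusted p = 0.999 in NP). The NP interval, from -2.10 to 2.14 on the log2 scale, does not show that per1b was the same in both groups. per3 (ENSDARG00000010519), the remaining period gene, had 1 read in all 6 libraries, in the deeper NP library.

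**Figure D1:**
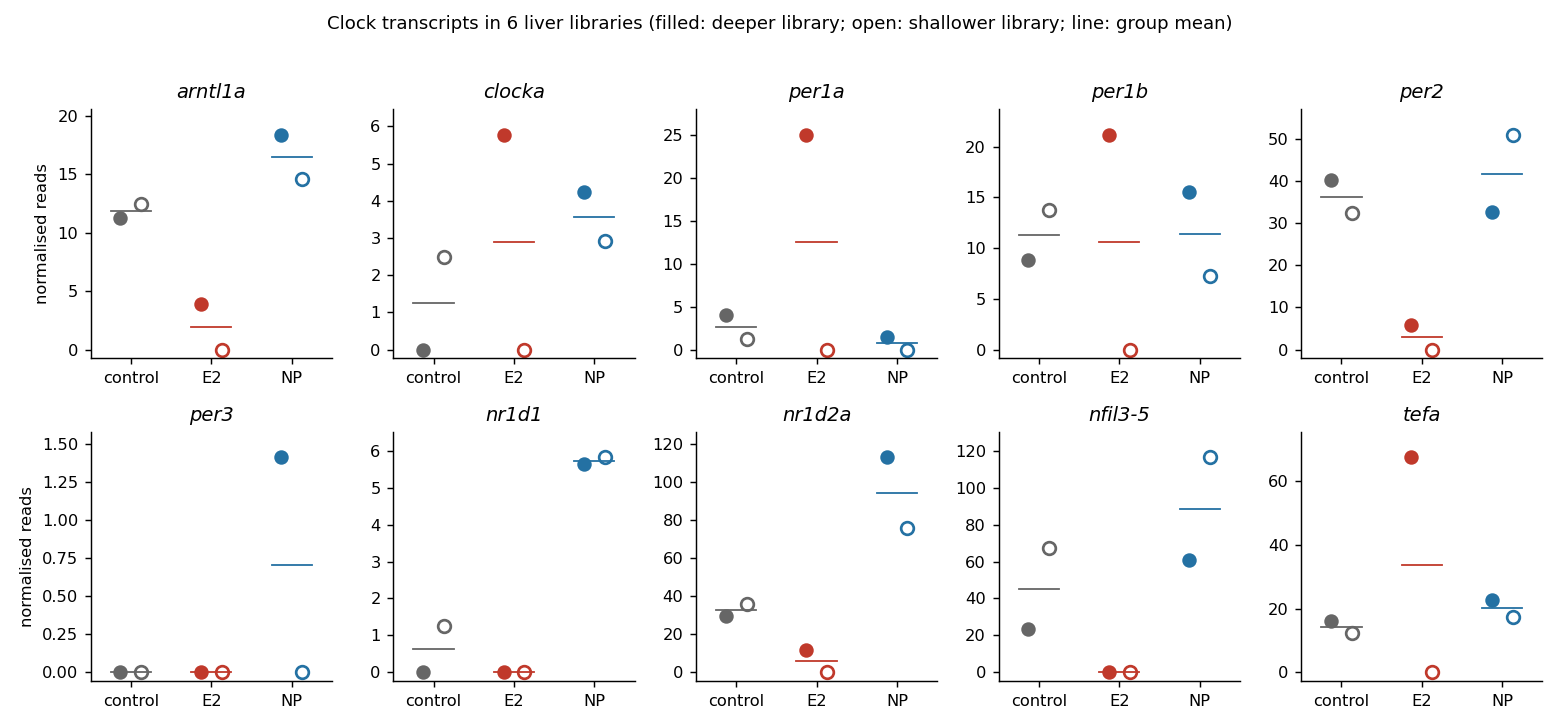
Normalised reads (y axis, linear, a separate scale per gene) of the 10 member genes with reads in each of 6 libraries, by group, with filled points for the deeper and open points for the shallower library and a line at the mean of both. The shallower E2 library is at 0 in every panel, nfil3-5 is at 0 in both E2 libraries, and nr1d2a is highest in the 2 NP libraries at 113 and 75.7.

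Of the nuclear receptors, nr1d2a (ENSDARG00000003820) encodes a Rev-erb beta, a repressor that binds haem. It had 37 and 29 reads in control, 6 and 0 in E2, and 80 and 52 in NP. These correspond to 29.7 and 36.2 normalised reads in control, 11.6 and 0 in E2, and 113 and 75.7 in NP. The deeper E2 library lay below both controls and both NP libraries lay above them, while the 0 of the shallower E2 library allows a level within the controls. The controls differed by 1.22-fold and the NP libraries by 1.49-fold. The pooled NP level was 2.94 times the control level, and the pooled E2 level was 3.26-fold lower than control. Its changes in the authors' deposited tables were 1.41 ± 0.76 in NP (adjusted p = 0.613) and -1.81 ± 1.39 in E2, without an adjusted p. limma-voom gave 1.48 ± 0.72 in NP (adjusted p = 0.759) and -1.77 ± 0.82 in E2 (adjusted p = 0.386). Within NP the library with more nr1d2a was the one with fewer pancreas reads (4935 against 14306 normalised reads), and the part of other tissue in the NP value was not tested.

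nr1d1 (ENSDARG00000033160), which encodes Rev-erb alpha, had 0 and 1 reads in control, 0 and 0 in E2, and 4 and 4 in NP. Both NP libraries lay above both controls, at 5.65 and 5.82 normalised reads against 0 and 1.25. The authors' deposited table gave 1.87 ± 1.41 for NP, without an adjusted p, and the interval from -0.89 to 4.63 on the log2 scale includes 0.

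Of the leucine zipper factors, nfil3-5 (ENSDARG00000094965), a member of the nfil3 (E4bp4) family of repressors, had the largest fold change of the members. Its reads numbered 29 and 54 in control, 0 and 0 in E2, and 43 and 80 in NP. On the normalised scale it had 23.3 and 67.3 in control, 0 in E2, and 60.7 and 116 in NP. The deeper E2 library lay below both controls, NP overlapped them, and the controls differed by 2.90-fold. Summed intestine markers (9 genes) stood at 36.1 and 830 normalised reads in control and 3.85 and 11.4 in E2. They too were higher in the shallower control and low in E2. In NP these markers stood at 239 and 43.7, the opposite order to nfil3-5. The part of intestine in the nfil3-5 value was not tested. With a floor of 3 reads over the E2 group, nfil3-5 was at least 8.195-fold lower there than the pooled control level. That floor takes the control level as exact, although the controls differed by 2.90-fold. Of 3378 genes with at least 50 control reads, 3.26% had 0 reads in both E2 libraries, and so did 1 of the 3 members with that many (nfil3-5, not per2 or nr1d2a). The E2 change in the authors' deposited table was -5.08 ± 1.77 (95% interval -8.55 to -1.62) with an unadjusted p of 0.00404 and no adjusted p. Adjusted by the Benjamini-Hochberg method over all 17208 genes, the authors' p became 0.296, and limma-voom gave -4.49 ± 1.27 with adjusted p = 0.251. Adjusted over genes with a mean of at least 10, the authors' p became 0.0684, still above the threshold. For NP the authors' deposited table gave 0.90 ± 0.81 (adjusted p = 0.999). In GRCz12tu nfil3-5 lies beside nfil3-3, and reads shared between the copies were not examined.

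tefa (ENSDARG00000039117), an activator at D-box sites, had 20 and 10 reads in control, 35 and 0 in E2, and 16 and 12 in NP. The deeper E2 library held 67.4 normalised reads, against 16.04 and 12.5 in the controls, while the shallower held 0. Both NP libraries, at 22.6 and 17.5, lay above both controls. The authors' deposited tables gave 1.19 ± 1.40 in E2, without an adjusted p, and 0.42 ± 0.97 in NP (adjusted p = 0.999). The direction in E2 rests on the deeper library: limma-voom gave 2.06 without the shallower E2 library and -1.65 without the deeper one.

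**Figure D2:**
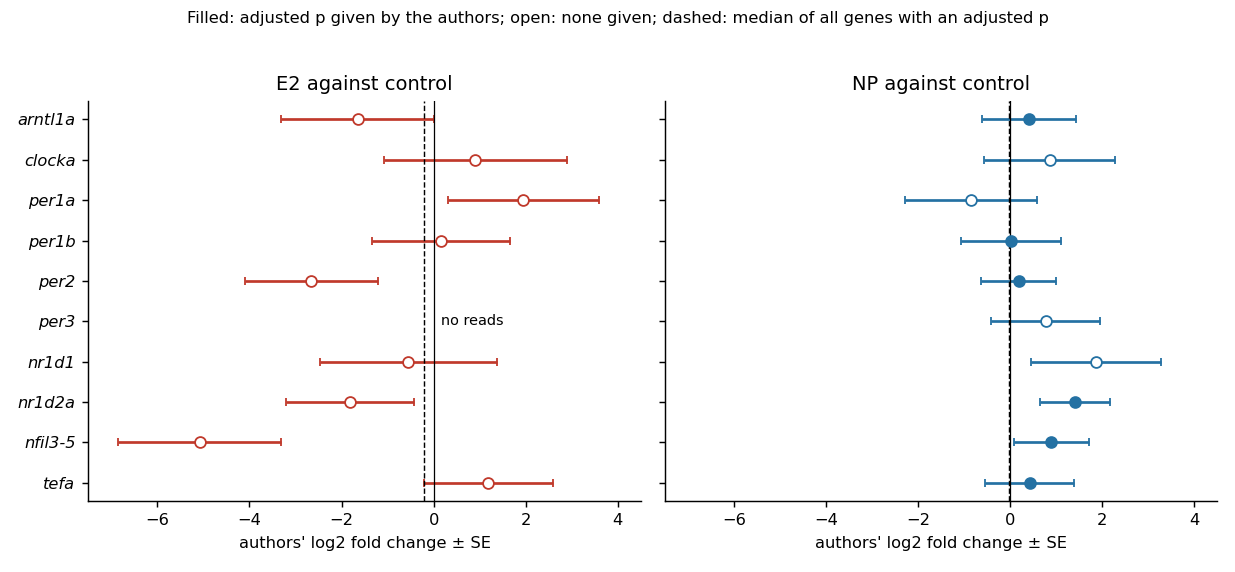
Log2 fold changes of the members (x axis) with their SE as bars in the authors' deposited tables, for E2 and NP against control, with filled points where an adjusted p was given and dashed lines at the median of all genes with one (-0.22 and -0.03). The E2 values run from -5.08 (nfil3-5) to 1.95 (per1a) and the NP values from -0.86 (per1a) to 1.87 (nr1d1).

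Among 9 members with a fold change in the authors' deposited E2 table, 5 were below 0 and 4 above. Of all 17208 genes with a fold change there, 66.1% were below 0. The median of the members was -0.55, the value of nr1d1 (1 control read and 0 E2 reads), beside a median of -0.52 over all these genes. Among 10 members in the authors' deposited NP table, 9 were above 0, with a median of 0.60, beside a median of -0.08 over 18067 genes, of which 46.5% were above 0. The 9 include per3 (1 and 0 reads in NP), nr1d1 (4 and 4) and clocka (3 and 2), and also per1b at 0.02 ± 1.08. Members are not replicates, and the count of 9 was not tested. Of the 8 members with at least 10 recovered reads, 4 had observed values of both E2 libraries below both controls, a 0 counted as 0 (per2, nr1d2a, arntl1a and nfil3-5), against 36.7% of all such genes. Without the shallower E2 library the count was 4 of 8. The 36.7% is for both E2 libraries, and the share of all genes by the deeper one alone was not worked out. Without the deeper E2 library the count was 7 of 8, a count fixed by the 0 reads of all members in the shallower library. Any member with reads in both controls then counts as below, and the share of all genes was not worked out. Both NP libraries were above both controls in 4 of the 8 (nr1d2a, arntl1a, clocka and tefa), against 19.3% of all such genes. For clocka this order rests on 2 reads in the shallower NP library against 2 in the shallower control. For arntl1a (13 and 10 reads in NP, 14 and 10 in control) and tefa (16 and 12, 20 and 10) it rests on the scaling. With TMM-scaled library sizes the count was also 4 of 8. Marker lists also differed in E2 and in NP. In the authors' deposited E2 table all 14 hepatocyte markers were below 0 (median -2.11, 3 fell), as were all 16 macrophage markers (median -1.73, 3 fell) and all 9 intestine markers with reads (median -3.59, 2 fell). Of all 3241 genes with an adjusted p, 119 fell. Exocrine pancreas markers went the other way, with 16 of 17 above 0 (median 3.35, 2 rose), and red cell markers had a median of -0.03. All 12 interferon response genes with reads were below 0 in E2 (median -2.91, 2 fell), as were 15 of 16 immediate early genes (median -1.95, 1 fell). In the authors' deposited NP table all 17 exocrine pancreas markers were above 0 (median 7.18, 15 rose), and red cell markers had a median of 2.06 (2 rose). There 15 of 16 macrophage markers were below 0 (median -1.94, 4 fell), as were all 12 interferon response genes with reads (median -2.35, 3 fell). For immediate early genes it was 16 of 17 (median -0.92, 4 fell). Hepatocyte and intestine markers had NP medians of 0.40 and -0.99, with 0 called. Of all 6799 genes with an adjusted p in NP, 86 rose and 114 fell. The part of these lists in the E2 and NP values of the members was not tested.

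The rest of the clock was read from lists fixed by symbol, with 54 further gene IDs, of which 45 had reads in the authors' E2 table and 48 in the authors' NP table. Of these, 10 had an adjusted p in E2 and 25 in NP, and 0 were called in either. At an unadjusted p under 0.05 there were 2 in the authors' E2 table (namptb and usp2a) and 0 in the authors' NP table. Their median log2 fold change was -0.27 in E2 and 0.37 in NP in the authors' deposited tables. Of 36 with at least 10 recovered reads, 13 had both E2 libraries below both controls and 1 had both above (nr1d4b), against 36.7% and 6.42% of all such genes, and 15 had both NP libraries above both controls and 3 both below, against 19.3% and 23.1%.

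Among the other activators, clockb, a second Clock gene, had 6 and 8 reads in control, 9 and 0 in E2, and 2 and 1 in NP, with 0.43 ± 1.58 in E2 and -1.23 ± 1.32 in NP in the authors' deposited tables. arntl1b and arntl2, further Bmal genes, and npas2, a relative of Clock, had at most 8 reads in any library. Their values in the authors' deposited tables were -0.24 ± 1.84, 0.50 ± 1.97 and -1.44 ± 2.02 in E2, and 0.21 ± 1.36, 1.05 ± 1.37 and -0.33 ± 1.44 in NP. Of the 7 activator IDs, 0 had an adjusted p in E2 and 1 in NP (arntl1a), and 0 were called.

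Cryptochromes, the partners of the period proteins, lay on both sides of 0 in E2. Of the 12 IDs in the period and cryptochrome list, 1 had an adjusted p in E2 (cry1ba) and 7 in NP, and 0 were called. cry1ba, a repressor cryptochrome, had 44.9 and 71.1 normalised reads in control, 114 and 22.8 in E2, and 121 and 91.7 in NP, with 0.28 ± 1.17 in E2 (adjusted p = 0.942) and 0.82 ± 0.73 in NP (adjusted p = 0.998) in the authors' deposited tables. cry1aa, which light induces in zebrafish as it does per2, had 28.9 and 36.2 in control, 15.4 and 0 in E2, and 32.5 and 37.8 in NP. Its deeper E2 library lay below both controls, as that of per2 did, with -1.49 ± 1.38 in the authors' deposited table. cry5, a 6-4 photolyase that repairs DNA and is also light-induced, had 1 and 0 reads in control, 10 and 0 in E2, and 1 and 2 in NP. Its change in the authors' deposited E2 table was 3.22 ± 1.84 (unadjusted p = 0.0803), opposite in sign to those of per2 and cry1aa. cry-dash, another member of the photolyase family, had 12 and 7 reads in control and 0 in E2, at least 1.88-fold lower with the same floor. cry1bb and cry4 gave -1.65 ± 1.49 and -2.80 ± 1.97 in the authors' deposited E2 table, and 0.71 ± 0.87 and 0.44 ± 1.15 in the authors' NP table.

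nr1d2b, the paralog of nr1d2a, was highest in the shallower E2 library. It had 13 and 25 reads in control, 11 and 17 in E2, and 18 and 30 in NP, and its 17 reads there are part of the 34 that the other clock genes had in that library. On the normalised scale these were 10.4 and 31.2 in control, 21.2 and 194 in E2, and 25.4 and 43.7 in NP. The authors' deposited tables gave 2.06 ± 1.27 in E2 (adjusted p = 0.394) and 0.66 ± 0.91 in NP (adjusted p = 0.999), where nr1d2a had -1.81 and 1.41. The difference between the paralogs was not tested. The Ror receptors, which activate at the sites where Rev-erbs repress, ranged from -1.32 (rorca) to 1.37 (rorab) in E2 and from -0.70 (rorca) to 1.17 (rorcb) in NP in the authors' deposited tables. None of them had an adjusted p in E2. In NP only rorab and rorcb had one, and neither passed.

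Of the other zipper and helix-loop-helix factors, nfil3 itself had 66 and 3 reads in control, 1 and 0 in E2, and 12 and 7 in NP. Of its 69 control reads, 66 were in the deeper control, in contrast to nfil3-5, which was higher in the shallower control. The same deeper control held 1351 normalised reads of interferon response genes and the shallower 267; its part in the nfil3 value was not tested. The authors' deposited tables gave -3.21 ± 1.69 for nfil3 in E2 and -0.91 ± 1.06 in NP. nfil3-6, another family member, had 14.4 and 11.2 normalised reads in control, 5.78 and 0 in E2, and 59.3 and 24.7 in NP, so that both NP libraries lay above both controls (1.52 ± 0.90 in the authors' deposited table, adjusted p = 0.727). hlfa, an activator related to tefa, also had both NP libraries above both controls, at 24.0 and 30.6 against 4.01 and 11.2 (1.61 ± 0.998 in the authors' deposited table, adjusted p = 0.765). bhlhe40, a repressor at E-box sites, had 26.5 and 176 in control, 27.0 and 11.4 in E2, and 70.6 and 196 in NP, so that both treated groups overlap the controls, with -2.04 ± 1.29 in the authors' deposited table (adjusted p = 0.41).

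Of the kinases and F-box proteins that set the life of clock proteins, gsk3ab, a glycogen synthase kinase, had 56.9 and 47.4 normalised reads in control, 34.7 and 91.2 in E2, and 24.0 and 27.6 in NP. Both of its NP libraries lay below both controls, with -0.93 ± 0.81 in the authors' deposited table (adjusted p = 0.996). fbxl3a, which marks cryptochromes for breakdown, had 27 and 36 reads in control, 2 and 0 in E2, and 20 and 18 in NP. Its value in the authors' deposited E2 table was -2.93 ± 1.51 (unadjusted p = 0.0522, no adjusted p). fbxw11a, an F-box protein of the ligase that acts on period proteins, had 10 and 12 reads in control, 1 and 0 in E2, and 15 and 9 in NP, with -2.19 ± 1.75 in the authors' deposited E2 table. Of the output genes, namptb, an enzyme of NAD synthesis, had 61 and 19 reads in control, 0 in E2, and 11 and 10 in NP. With the same floor it was at least 7.90-fold lower in E2 than the pooled control level, taken as exact. The authors' deposited tables gave -4.85 ± 1.78 in E2 (unadjusted p = 0.00649, no adjusted p) and -1.14 ± 0.91 in NP (adjusted p = 0.959). usp2a (the ID with more reads of 2), a deubiquitinase, had 0 reads in E2 and 77 and 2 in the controls, so that 77 of 79 control reads were in the deeper control. nocta, a nocturnin gene, had 55.3 and 19.9 normalised reads in control, 34.7 and 11.4 in E2, and 86.2 and 81.5 in NP (1.05 ± 0.80 in the authors' deposited NP table, adjusted p = 0.931).

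**Figure D3:**
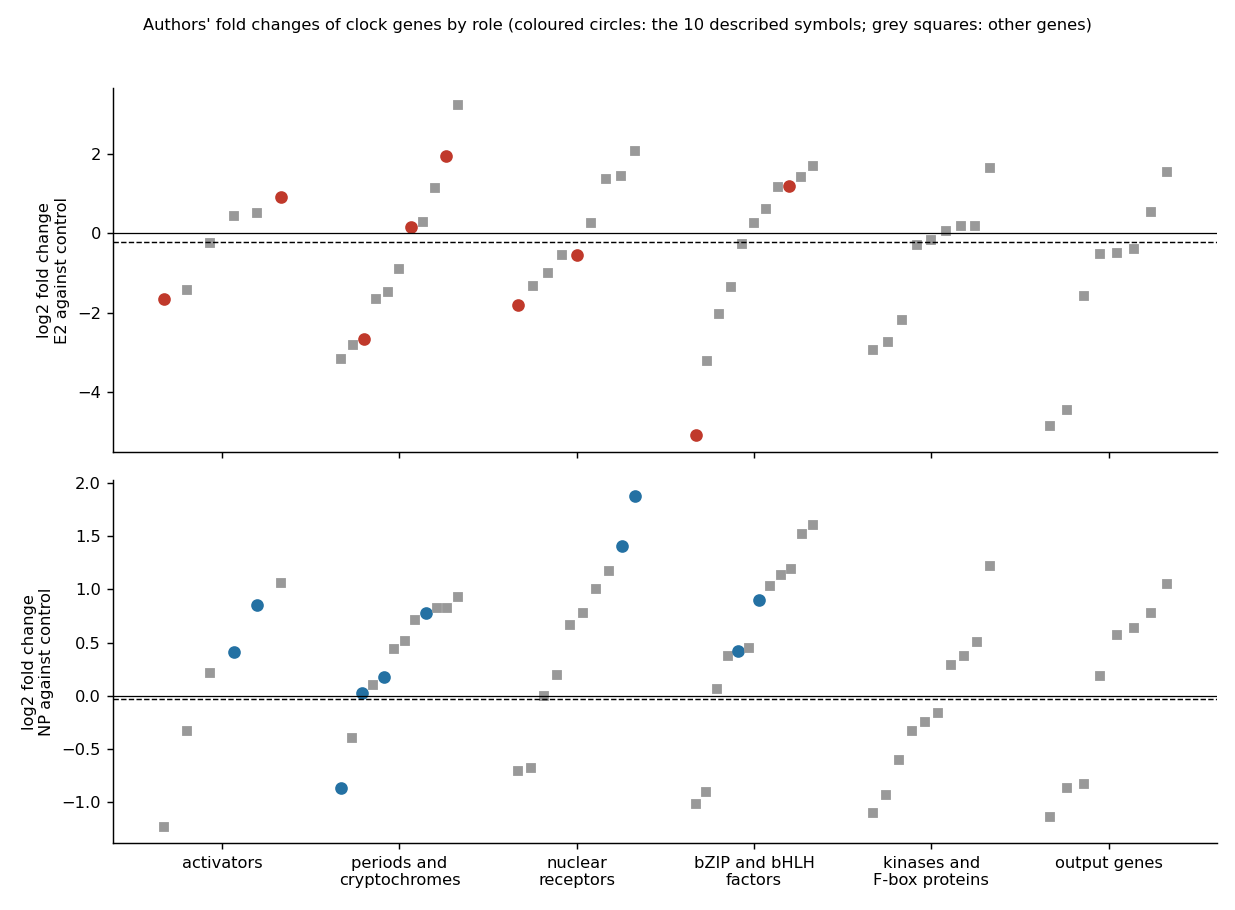
Log2 fold changes (y axes) in the authors' deposited tables of clock genes in 6 lists by role, for E2 (upper panel) and NP (lower panel) against control, with coloured circles for the members, grey squares for other genes, genes ordered by value within a list and dashed lines at the median of all genes with an adjusted p. E2 values run from -5.08 to 3.22 and NP values from -1.23 to 1.87. Of these genes 10 had an adjusted p in E2 and 31 in NP, and none passed 0.05.

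How large a change these libraries could show differs between the comparisons. The SE of the members ran from 1.39 to 1.997 on the log2 scale in the authors' E2 table and from 0.76 to 1.43 in the authors' NP table. Over all genes no SE exceeded 2.02 in E2 or 1.44 in NP. In NP the SE of per3, with 1 read in all, was 1.18, below the 1.43 of per1a. The SE of a member with few reads may therefore understate how uncertain its change is. If the authors' fold changes were pulled toward 0 is not stated in the sources used here. The smallest change called in any gene was 3.21 in the authors' E2 table and 2.15 in the authors' NP table, both in log2 units. On simulated data for E2 against control, limma-voom called 2 of 98 genes changed 4-fold and 58 of 96 changed 16-fold. The simulation gave every gene the same spread, which was not set from these libraries. The real E2 libraries differed by a median of 2.96-fold over 2194 genes with a mean of at least 20 and reads in both. These shares may therefore not hold for the real libraries. For nr1d2a, the member with the smallest SE, the 95% interval ran from -4.54 to 0.91 in E2 and from -0.08 to 2.89 in NP. The missing calls therefore do not show that clock transcripts were at the same level in treated and control livers.

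**Figure D4:**
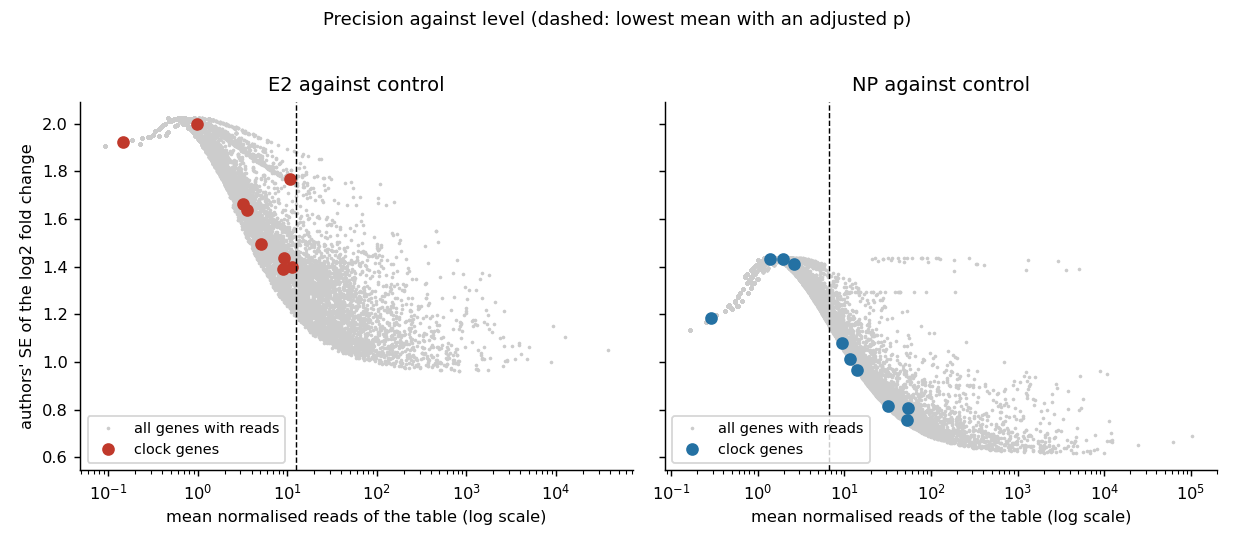
SE of the log2 fold change (y axis) against the mean normalised reads of a gene (x axis, log scale) in the authors' deposited E2 and NP tables, with all genes in grey, clock genes in colour and a dashed line at the lowest mean with an adjusted p. All members lie left of the line at 12.6 in E2, and 6 lie right of the line at 6.64 in NP.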

How the data were processed

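Per the submitters' processing notes, TopHat2, HTSeq, DESeq2 and GRCz10 were used; versions and settings are not given in the sources used here. The deposited files are 2 tables of the authors' comparisons, which per the file headers hold a signal (mean normalised read count over 4 libraries), a log2 fold change and its SE, a score (the log2 fold change divided by its SE), p-values and adjusted p-values. The deposited tables hold 32760 rows for 31953 gene IDs, and repeated rows were identical.

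Samples were grouped by the agent in the labels. The design allowed for counts per library. The files hold none, so the authors' comparisons are the main result. Reads per library were recovered, as a check, from the means. Each mean is a sum of whole reads times 1 step per library, the steps were read from the lowest means, and both tables were solved together for 6 whole counts. Solutions were unique for 18348 of 18593 genes with reads (98.7%), which hold 40.2% and 32.8% of the summed means in the E2 and NP tables. Of the genes tried, 0 were without a joint solution. Among jointly solved genes, 13697 could also be solved in each table by itself, with identical control reads in 13697. That agreement was fixed in advance, because a joint solution also solves each table alone, and it is no further check. Of 3000 altered means 0 had a solution. limma 3.58.1 (voom, R 4.3.3, genes with at least 10 reads, TMM scaling) was run on them. The authors normalised each table separately, so normalised reads of E2 and NP were set on the scale of the shared controls. Alternatives were other filters, scalings and a pseudocount, and each library left out; the counts of libraries below or above both controls under alternatives, and the reads expected in the shallower E2 library from the ratio of recovered reads, were added after the data were seen. The recovery and limma-voom were both run on simulated data. There the recovery solved 3718 genes, and all 6 reads were right in 3718. The simulated means were made with the same steps, so a unique solution is right by construction. Errors in the steps were not tested. For E2 against control, limma-voom called 2 of 98 genes changed 4-fold and 58 of 96 changed 16-fold. It also called 1 unchanged gene. Most changes of 4-fold were thus missed. Intervals and floors (3 reads) cover counting error only, and a floor takes the pooled control level as exact.

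All 10 member symbols are named. From each wider clock list and the glucocorticoid list, called genes and up to 4 genes with the smallest deposited p per comparison could be named; arntl1b, cry1aa and rorca were chosen after their values were seen. Members and lists were chosen with earlier results of these data known. No p was adjusted over a list alone.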

Additional observations from a re-analysis of the deposited data

How the results depend on the processing

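The count of members called was 0 in both comparisons under every alternative run, and so was that of the other clock genes. No paired analysis was possible because the labels give no replicate numbers and the recovered libraries cannot be tied to samples. Over all genes, 187 calls in E2 became 72 with no filter on low values and 0 with limma-voom under TMM or the authors' size factors. In NP 200 calls became 0 with limma-voom under both scalings. With each library left out in turn, limma-voom called 0 to 0 genes in E2 and 0 to 0 in NP. The median of the members in E2 was -0.55 over 9 members in the authors' deposited table, and -0.57 over 8 with limma-voom. With each library left out, limma-voom medians over 6 to 8 members ranged from -2.24 to -0.34. The method and the members thus differ from those of -0.55. The lowest median was without the deeper E2 library, where all members are at 0 E2 reads. The count of members below both controls in E2 ranged from 4 to 7, and the share of all genes under these alternatives was not worked out. The highest was without the deeper E2 library, where the 0 reads of all members in the shallower one fix the count. Single members reversed in 9 cases, none of them called. per1b in E2 was -0.082 with a pseudocount of 1, and -1.28 to 0.82 with libraries left out; in NP it was -0.038 with limma-voom, -0.027 with the authors' size factors, and -0.56 to 0.49 with libraries left out. tefa in E2 ranged from -1.65 to 2.06 and per2 in NP from -0.14 to 0.47 with libraries left out. The cause of these changes was not tested. nr1d1 and per3 had too few reads for limma-voom. The E2 comparison is limited by its shallower library, which had a size factor of 0.0878 against 0.519 in the deeper. It held 19186 reads over the recovered genes, which are a part of its full depth.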

Other observations

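Genes known to respond to glucocorticoids were looked up beside the clock, because per1 genes respond to these hormones in mammals. Of 12 gene IDs, which include per1a and per1b, 1 rose and 1 fell of the 10 with an adjusted p in the authors' deposited NP table, against 2.94% of all genes called, and 0 of 6 passed in the authors' deposited E2 table, against 5.77%. pck1, the gluconeogenic enzyme PEPCK, had 49 and 46 reads in control, 444 and 192 in NP, and 0 in both E2 libraries. It rose by 3.02 ± 0.71 in the authors' deposited NP table (adjusted p = 0.00153), and limma-voom on the recovered reads gave an adjusted p of 0.465. In E2 it was at least 9.38-fold lower than the pooled control level, with an unadjusted p of 0.00293 and no adjusted p in the authors' deposited table. igfbp1a, which encodes an IGF binding protein, fell by 2.54 ± 0.795 on the log2 scale in the authors' deposited NP table (adjusted p = 0.0475), but not with the authors' p-values adjusted over every gene (0.126); its reads per library were not recovered. tsc22d3, which encodes the leucine zipper protein GILZ, had 108 and 218 normalised reads in control and 774 and 573 in NP, with 1.93 ± 0.68 in the authors' deposited table (adjusted p = 0.116). fkbp5, a co-chaperone of the glucocorticoid receptor, had 195 and 107 in control and 480 and 166 in NP, where the groups overlap. In NP per1a had 1 and 0 reads and no adjusted p in the authors' deposited table, so it could not be called. per1b had 11 and 5 reads in NP (adjusted p = 0.999 in the authors' deposited table).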
